A study of Mus musculus with 5 samples.

Results

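The troponin genes of skeletal muscle and heart were followed across 3 sorted cell groups of dystrophic mouse muscle. The 8 members, Tnnt1, Tnnt2, Tnnt3, Tnni1, Tnni2, Tnni3, Tnnc1 and Tnnc2, were chosen by name: every non-control probe whose gene name in the array files is one of these symbols was taken. They were 8 of 36409 genes and unnamed features, measured by 9 of 55681 probes, since Tnnt3 has 2 probes and the other members have 1 each. All 8 members were among the 26095 genes kept, for which some group had all its arrays well above background. For Tnnc1, Tnnt2 and Tnni3 that filter was met without every vehicle Sca1+ array, and 5 of the 8 members were well above background on all 5 arrays.

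Troponin is the calcium switch of striated muscle. It sits on the thin filament beside actin and tropomyosin and has a troponin T subunit that binds tropomyosin, a troponin I subunit that inhibits the actin-myosin interaction, and a troponin C subunit that binds calcium and relieves the inhibition. Each subunit has isoforms from separate genes: Tnnt3, Tnni2 and Tnnc2 are the isoforms of fast skeletal fibres, Tnnt1 and Tnni1 those of slow skeletal fibres, Tnnt2 and Tnni3 those of the heart, and Tnnc1 is shared by slow fibres and heart. Tnnt2 is also made in embryonic and regenerating skeletal muscle, so that it is not a marker of heart muscle alone. Resting muscle stem cells do not assemble sarcomeres, and troponin genes are switched on as myoblasts differentiate into fibres.

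All cells came from dystrophin-deficient muscle: every mouse was of the DMD/MDX genotype on a C57BL/6 background, a mouse model of Duchenne muscular dystrophy, and no wild-type mice were included. Mice received TSA (trichostatin A, an inhibitor of histone deacetylases) at 0.6 mg/kg, or vehicle, by intraperitoneal injection over 45 days. Cells positive for CD34 and alpha7-integrin were then sorted by flow cytometry into a Sca1+ fraction, called interstitial cells, and a Sca1- fraction, called MuSC (satellite cells, the stem cells of muscle). RNA was hybridised to 1-colour Agilent arrays: 2 for Sca1+ cells after TSA, 1 for MuSC after vehicle, and 2 for Sca1+ cells after vehicle. The labels give neither the age of the mice nor whether replicates were separate animals or pools, so the p-values describe only how these samples vary, and that variation may be technical. The question the design addresses is how TSA changes gene expression in Sca1+ interstitial cells, with MuSC as a second population.

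Array values are log2 of the spot's processed signal minus the array's 75th percentile, so 0 is the brightness of that percentile. That percentile was 326 and 452 signal units on the TSA arrays, 240 on the MuSC array and 235 and 165 on the vehicle Sca1+ arrays, and 58.5% to 66.9% of spots were well above background. The number of arrays limits the precision of every value below. Replicate arrays correlated at 0.989 for TSA and 0.987 for vehicle (Pearson's r across genes, which are not independent replicates). Replicate 1 of each group and the MuSC array shared slide 1, and the other arrays shared slide 2, so differences are also given within a slide. Of the genes of the gate, Ly6a, which encodes Sca1, was at 5.89 and 5.71 on the TSA arrays, 1.46 on the MuSC array and 6.46 and 6.59 on the vehicle Sca1+ arrays. Cd34 was at 6.85 and 7.05 on the TSA arrays, 4.47 on the MuSC array and 7.67 and 7.65 on the vehicle Sca1+ arrays. Itga7, the alpha7-integrin of the gate, was at 4.53 and 4.59 on the TSA arrays, 7.02 on the MuSC array and 1.35 and 1.09 on the vehicle Sca1+ arrays. Both fractions were sorted as positive for CD34 and alpha7-integrin, yet in MuSC Cd34 differed from vehicle Sca1+ cells by -3.19 ± 0.19 and Itga7 by 5.80 ± 0.21 on the log2 scale (adjusted p = 0.00221 and 0.00144 in limma). Pax7, not part of the gate but the defining transcription factor of satellite cells, was at -0.99 and -1.16 on the TSA arrays, 3.48 on the MuSC array and -3.77 and -4.51 on the vehicle Sca1+ arrays.

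The probes of the troponin T genes carry much of what follows, and those of Tnnt2 and Tnnt3 are shown because these are the closest probes of different genes in the set. Sequences and positions are those of the deposited array files, in mm9. The Tnnt2 probe lies at chr1:137747976-137748288. The Tnnt3 probe used for the gene (A_55_P2088375) lies at chr7:149698467-149698526, and the second Tnnt3 probe (A_51_P345699) at chr7:149698500-149700262. Each probe has 60 bases. The Tnnt2 probe and the second Tnnt3 probe cover 313 and 1763 bases of genome, so that they cross at least 1 splice junction. Capitals mark the run of 27 bases that the Tnnt3 probes share.
Tnnt2: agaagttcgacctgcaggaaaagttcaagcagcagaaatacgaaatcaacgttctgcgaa
Tnnt3 (A_55_P2088375): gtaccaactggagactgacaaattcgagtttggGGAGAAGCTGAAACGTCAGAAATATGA
Tnnt3 (A_51_P345699): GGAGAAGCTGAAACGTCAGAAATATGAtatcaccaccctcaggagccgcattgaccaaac
Over the 35 pairs of probes from different troponin genes, aligned without gaps at any offset, the most matching bases were 29, for Tnnt2 against each Tnnt3 probe (over 43 and 44 overlapping bases), and the longest shared run was 8 bases. The other probes lie at chr7:4456265-4456324 for Tnnt1, chr1:137705328-137706203 for Tnni1, chr7:149630251-149630310 for Tnni2, chr7:4472043-4472102 for Tnni3, chr14:32023360-32023776 for Tnnc1 and chr2:164602661-164602720 for Tnnc2. The files give no exon or transcript annotation for these positions.

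Start regions were available from RefSeq (GRCm38.p6) for 6 of the 8 members, as 8 windows from 250 bases before to 50 bases after an annotated start. Tnni2 and Tnnt3 were not matched. The 4 windows shown are those of the cardiac and slow troponin T genes and of the troponin C pair, on which the comparisons below turn. Capitals mark motif matches on either strand: E-boxes (CANNTG, the site of MyoD-family factors), the MCAT element (CATTCC, the site of TEAD factors) and TATAAA.
Tnnt2 window, chr1:135836084-135836383, plus strand: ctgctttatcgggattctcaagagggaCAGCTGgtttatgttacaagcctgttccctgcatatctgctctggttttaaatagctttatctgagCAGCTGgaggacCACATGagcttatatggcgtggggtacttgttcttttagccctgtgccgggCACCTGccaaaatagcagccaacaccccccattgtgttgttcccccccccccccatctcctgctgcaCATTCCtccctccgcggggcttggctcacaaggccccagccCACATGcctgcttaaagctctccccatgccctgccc
Tnnt1 window, chr7:4515926-4516225, minus strand: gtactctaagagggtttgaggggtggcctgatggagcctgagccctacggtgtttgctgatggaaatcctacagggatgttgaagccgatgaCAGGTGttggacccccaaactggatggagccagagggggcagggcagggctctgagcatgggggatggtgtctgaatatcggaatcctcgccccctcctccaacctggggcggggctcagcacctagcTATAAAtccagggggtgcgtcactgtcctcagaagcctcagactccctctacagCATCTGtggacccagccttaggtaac
Tnnc2 window, chr2:164779685-164779984, minus strand: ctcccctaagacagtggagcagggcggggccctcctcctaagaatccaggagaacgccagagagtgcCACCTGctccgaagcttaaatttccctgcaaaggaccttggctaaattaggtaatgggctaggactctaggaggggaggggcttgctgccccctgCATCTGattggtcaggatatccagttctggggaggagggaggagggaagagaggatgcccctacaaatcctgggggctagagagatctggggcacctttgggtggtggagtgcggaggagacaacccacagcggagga
Tnnc1 window, chr14:31208062-31208361, plus strand: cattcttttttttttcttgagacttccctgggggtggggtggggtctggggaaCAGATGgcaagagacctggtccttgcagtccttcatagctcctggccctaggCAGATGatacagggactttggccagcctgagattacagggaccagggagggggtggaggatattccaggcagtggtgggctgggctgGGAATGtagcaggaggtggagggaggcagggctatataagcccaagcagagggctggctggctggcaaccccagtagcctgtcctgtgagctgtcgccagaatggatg
The Tnnt2 window shown held 5 E-boxes and an MCAT match that began 27 bases before the start, and the Tnnc1 window held 2 E-boxes and an MCAT match 58 bases before the start. The second RefSeq window of Tnnt2, at chr1:135836739-135837038, held 2 E-boxes and no MCAT match. The Tnnt1 window held 2 E-boxes and a TATAAA match 30 bases before the start, and the Tnnc2 window held 2 E-boxes. No match of these motifs overlapped another in the 4 windows. Such matches are common: of 32851 mouse windows of the same length, 72.3% held an E-box, 14.7% an MCAT match and 13.6% a TATAAA match. A MEF2 site and a CArG box, held by 3.19% and 1.63% of all windows, had no match in any of the 8 troponin windows. These are matches of letters in a window and no measure of binding.

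In Sca1+ cells, the 3 fast troponin genes and the cardiac troponin T gene were higher after TSA. Tnnt2 was 17.1-fold higher in TSA Sca1+ cells, with 1 of 2 vehicle arrays well above background for it, Tnnc2 5.11-fold, Tnnt3 4.0-fold and Tnni2 2.64-fold. The 3 slow genes and Tnni3 did not pass the test. In all, 4 of the 8 members passed at an adjusted p under 0.05 in the direction of higher and 0 in the direction of lower. Over all 26095 genes tested, 2.98% passed in either direction, 2.71% as higher (708 genes) and 0.268% as lower (70 genes). The median difference of the 8 members was 1.34 on the log2 scale, against -0.13 over all genes. Both TSA arrays lay above both vehicle arrays for 8 of 8 members, which held for 22.9% of all genes. That count includes Tnnc1, Tnnt2 and Tnni3, which passed the filter through other groups than vehicle Sca1+ cells. For Tnnc1, TSA array 2 at -4.58 lay below -4.42, the lowest well-above-background value of vehicle array 2, so its order is not settled. In sorted bulk RNA, fewer cells of a type and less RNA per cell cannot be told apart, and this applies to each difference below. With either vehicle array left out, 1 member passed (Tnnt2), and with either TSA array left out none of the 8 did; the number at an unadjusted p under 0.05 in limma was then 6 to 8. After normexp background correction 5 members passed, and the split over all genes turned to 1253 higher and 5876 lower. Tnnc1 and Tnni3 then differed by -0.46 and -0.42 (adjusted p = 0.101 and 0.137 in limma). The direction of these dim members thus depended on the correction, and neither passed in the main fit.

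**Figure D1:**
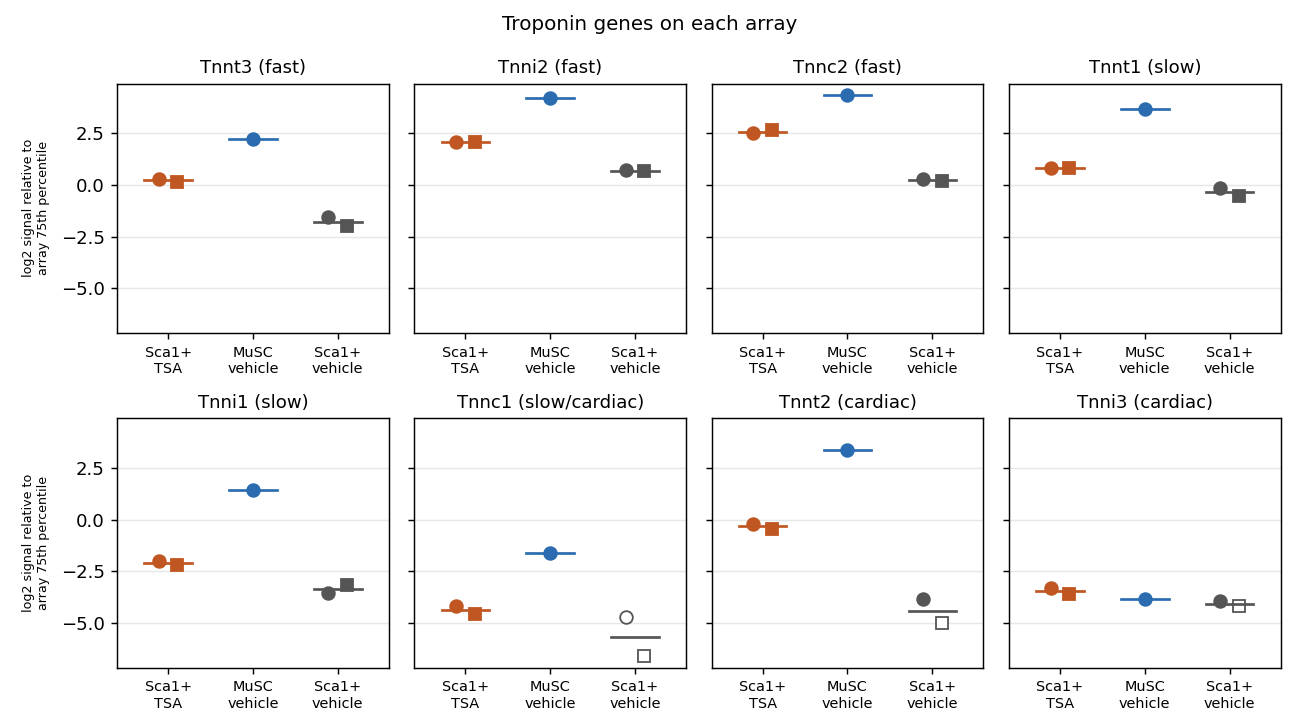
log2 signal relative to the array's 75th percentile (vertical axis) of each troponin gene in TSA Sca1+, MuSC and vehicle Sca1+ cells. Circles are arrays of slide 1, squares arrays of slide 2, open symbols spots not well above background, and lines group means. Tnni3 stays between -4.20 and -3.29 on all 5 arrays, while Tnnt2 spans -5.0 to 3.37.

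Among the fast isoforms, Tnnc2, the fast troponin C, had log2 values of 2.53 and 2.63 on the TSA arrays and 0.28 and 0.17 on the vehicle arrays. It was higher by 2.35 ± 0.15 (log2 difference ± standard error of the fit, n = 2 arrays each, adjusted p = 0.00853 in limma), with 2.24 on slide 1 and 2.46 on slide 2. The groups were far apart and the replicates close together. Tnnt3, the fast troponin T, was at 0.28 and 0.15 on the TSA arrays and -1.56 and -2.00 on the vehicle arrays. Its difference was 2.00 ± 0.21 (adjusted p = 0.0269), with 1.84 and 2.16 on the 2 slides. The second Tnnt3 probe read -0.26 and -0.48 on the TSA arrays and -1.68 and -1.72 on the vehicle arrays. In a fit over all 36031 probes kept, this probe differed by 1.33 ± 0.17 (adjusted p = 0.0478) and the first by 2.00 ± 0.22 (adjusted p = 0.0332). Both Tnnt3 probes therefore passed, with the second giving the smaller difference. Tnni2, the fast troponin I, was at 2.09 and 2.07 on the TSA arrays and 0.69 and 0.68 on the vehicle arrays. It was higher by 1.40 ± 0.14 (adjusted p = 0.0253), and the difference was 1.40 on each slide. With any one of the 4 Sca1+ arrays left out, the adjusted p of each of the 3 fast genes was above 0.05, while the log2 differences stayed between 2.29 and 2.41 for Tnnc2, 1.78 and 2.22 for Tnnt3 and 1.39 and 1.41 for Tnni2.

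None of the slow isoforms passed the test after TSA. Tnnt1, the slow troponin T, was at 0.80 and 0.79 on the TSA arrays and -0.13 and -0.52 on the vehicle arrays, a difference of 1.12 ± 0.19 (2.18-fold, adjusted p = 0.0766, 95% interval 0.60 to 1.65). Tnni1, the slow troponin I, was at -2.02 and -2.18 on the TSA arrays and -3.57 and -3.16 on the vehicle arrays. Its difference was 1.27 ± 0.21 (2.41-fold, adjusted p = 0.0684, 95% interval 0.71 to 1.82), with 1.55 on slide 1 and 0.98 on slide 2. For both genes the groups did not overlap, and the intervals, which are not adjusted over genes, lay above 0. Tnnc1, the troponin C of slow fibres and heart, was at -4.19 and -4.58 on the TSA arrays and -4.70 and -6.62 on the vehicle arrays, neither of which was well above background. Its difference of 1.27 ± 0.69 (adjusted p = 0.329, 95% interval -0.58 to 3.12) was 0.51 on slide 1 and 2.04 on slide 2. TSA array 2 lay below -4.42, the lowest well-above-background value of vehicle array 2. No rise is therefore read from the bound of 1.10-fold, which averages over both slides. Here the vehicle arrays were further from each other than vehicle array 1 was from the TSA arrays, and after normexp correction the difference turned to -0.46. In the adjusted test 0 of the 3 slow genes passed, and 2 of the 3 had an unadjusted p under 0.05 in limma. Normexp correction moved Tnnt1 past the threshold, at 0.93 with an adjusted p of 0.00674, and took Tnni1 to 0.13 (adjusted p = 0.68).

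Of the cardiac isoforms, Tnnt2 passed and Tnni3 did not. Tnnt2, the cardiac and embryonic troponin T, was at -0.21 and -0.45 on the TSA arrays and -3.86 and -5.0 on the vehicle arrays, where array 2 was not well above background. The difference was 4.10 ± 0.42 (adjusted p = 0.0249, 95% interval 2.97 to 5.23), with 3.65 on slide 1 and 4.55 on slide 2. It passed without either vehicle array (adjusted p = 0.0321 and 0.0407) but not without TSA array 1 (adjusted p = 0.168) or TSA array 2 (adjusted p = 0.16). Normexp correction, which adds an offset that compresses dim spots, gave a smaller difference of 1.54 (adjusted p = 1.17e-05). Tnni3, the cardiac troponin I, was at -3.29 and -3.61 on the TSA arrays and -3.95 and -4.20 on the vehicle arrays, with vehicle array 2 not well above background. Its difference was 0.63 ± 0.20 (adjusted p = 0.184, 95% interval 0.09 to 1.17) and turned to -0.42 under normexp correction (adjusted p = 0.137). The groups did not overlap.

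**Figure D2:**
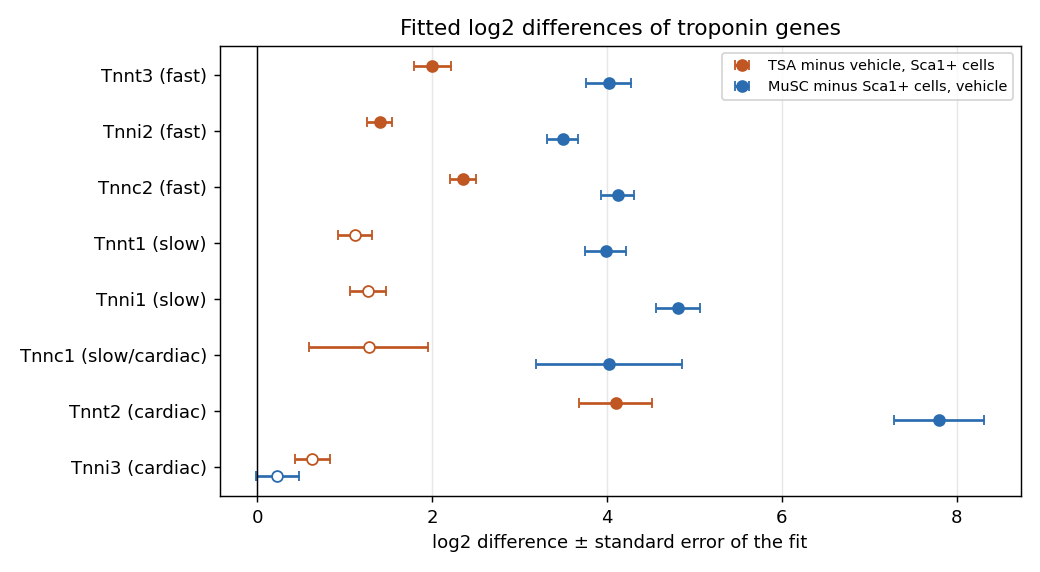
Fitted log2 differences (horizontal axis) of the 8 troponin genes for TSA minus vehicle in Sca1+ cells and for MuSC minus vehicle Sca1+ cells, with bars of 1 standard error of the fit. Filled symbols passed an adjusted p of 0.05 in limma, and the pair of comparisons shares the vehicle Sca1+ arrays.

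Whether the fast gene of a subunit gained on its slow partner was read from the ratio of both genes within an array, which does not depend on scaling between arrays. The log2 ratio of Tnnt3 to Tnnt1, set to a vehicle mean of 0, was 0.94 and 0.82 on the TSA arrays, 0.04 on the MuSC array and 0.03 and -0.03 on the vehicle arrays. The TSA arrays were higher by 0.88, or 0.91 and 0.85 within the slides, against a pooled SD of 0.063. An exact permutation test, two-sided, of 2 arrays against 2 gave p = 0.333, the smallest p that this design allows. The result depended on the Tnnt3 probe. With the second probe, the ratio was 0.32 and 0.10 on the TSA arrays and -0.18 and 0.18 on the vehicle arrays, so the groups overlapped and the difference was 0.21. For Tnni2 to Tnni1 the ratio was 0.06 and 0.20 on the TSA arrays, -1.32 on the MuSC array and 0.21 and -0.21 on the vehicle arrays. The TSA and vehicle groups overlapped, with a difference of 0.13 (pooled SD 0.22, exact permutation p = 1). Normexp correction moved the TSA minus vehicle differences to 0.34 for Tnnt3 to Tnnt1, 1.14 for Tnni2 to Tnni1 and 2.61 for Tnnc2 to Tnnc1. For Tnnc2 to Tnnc1 the ratio was 0.83 and 1.33 on the TSA arrays, 0.10 on the MuSC array and -0.90 and 0.90 on the vehicle arrays. The Tnnc1 spots of both vehicle arrays did not rise well above background, so these vehicle ratios are no measured levels, and no test is read from the difference of 1.08 (1.73 on slide 1, 0.43 on slide 2). With 2 arrays against 2 the permutation test cannot pass the threshold, so the per-array values carry this comparison. That 3 of 3 fast genes and 0 of 3 slow genes passed singly does not show a difference between them.

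**Figure D3:**
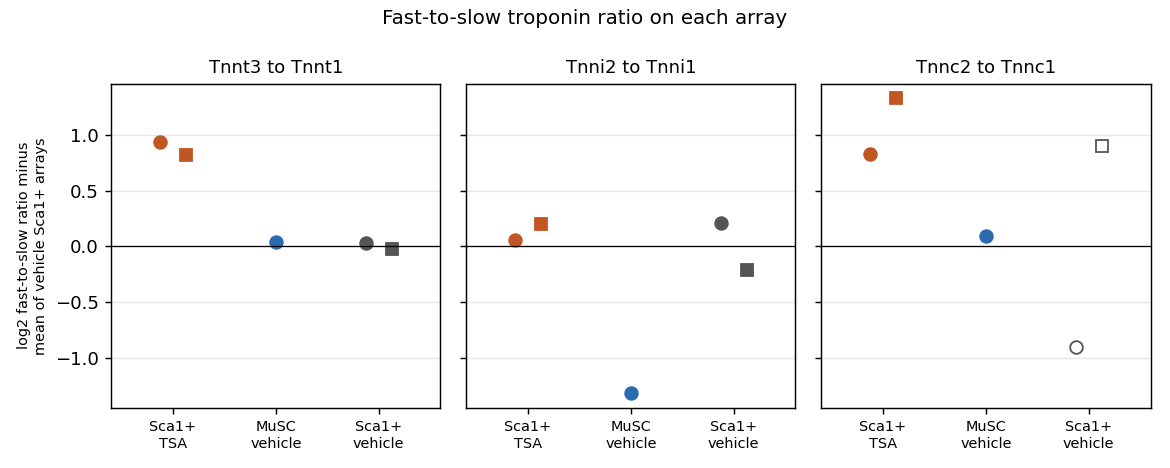
log2 ratio of the fast to the slow gene of troponin T, troponin I and troponin C on each array (vertical axis, minus the mean of the vehicle Sca1+ arrays) in TSA Sca1+, MuSC and vehicle Sca1+ cells. Circles are slide 1, squares slide 2, and open symbols arrays on which a gene of the pair was not well above background. The TSA arrays stand above the vehicle arrays for Tnnt3 to Tnnt1, at 0.94 and 0.82, and the MuSC array stands lowest for Tnni2 to Tnni1, at -1.32.

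In vehicle-treated mice, MuSC had more RNA of 7 of the 8 troponin genes than Sca1+ cells. The 7 were higher by 3.49 to 7.80 on the log2 scale, with Tnnt2 the furthest apart. Normexp correction gave smaller differences for the same 7, from 0.94 (Tnnc1) over 2.94 (Tnni1) to 4.83 (Tnnt2), and all 7 still passed. Over all 26090 genes with a value, 22.2% passed in this comparison, 10.5% as higher and 11.7% as lower, and the members' median of 4.02 compares with -0.04 over all genes. MuSC had a single array, which was assumed to vary like the Sca1+ arrays. It lay above both vehicle Sca1+ arrays for all 8 members, as it did for 39.3% of all genes.

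Tnnt2 was at 3.37 on the MuSC array, against -3.86 and -5.0 on the vehicle Sca1+ arrays, a difference of 7.80 ± 0.51 (223-fold, adjusted p = 0.00259). Only vehicle array 1 was well above background for this gene, and within its slide the difference was 7.23. The slow troponin I gene Tnni1 came next, at 1.44 in MuSC against -3.57 and -3.16 in vehicle Sca1+ cells, a difference of 4.81 ± 0.25 (28-fold, adjusted p = 0.00176). Tnnc2 differed by 4.12 ± 0.19 (17.4-fold, adjusted p = 0.0015), at 4.35 in MuSC against 0.28 and 0.17. Tnnt3 differed by 4.02 ± 0.26 (16.2-fold, adjusted p = 0.0025), at 2.24 in MuSC against -1.56 and -2.00, and its second probe by 3.34 ± 0.21. Tnnt1, at 3.66 in MuSC against -0.13 and -0.52, differed by 3.98 ± 0.24 (15.8-fold, adjusted p = 0.00214), and Tnni2, at 4.18 against 0.69 and 0.68, by 3.49 ± 0.18 (11.2-fold, adjusted p = 0.00163). In this comparison the fast genes differed by 3.49 to 4.12 and the slow genes by 3.98 to 4.81. Tnnc1 was at -1.63 in MuSC against -4.70 and -6.62, at least 7.39-fold higher (fitted difference 4.02 ± 0.84, adjusted p = 0.0376). That bound holds for the processed signal: normexp correction gave a difference of 0.94 (adjusted p = 0.0103), which is below it. The call was lost without a filter on dim probes (adjusted p = 0.0786) and without either TSA array, which enter only the estimate of spread (adjusted p = 0.085 each). Tnni3 was at -3.85 in MuSC against -3.95 and -4.20, a difference of 0.23 ± 0.24 (adjusted p = 0.556, 95% interval -0.43 to 0.89) that turned to -0.18 under normexp correction.

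Set against MuSC, TSA Sca1+ cells had less RNA of 6 of the 8 members. Population and treatment differ together in this comparison and cannot be told apart. Of all genes, 12.8% passed, 7.96% as higher and 4.83% as lower, and the members' median was -2.42 against -0.13 over all genes. Tnnt2 was lower by 3.70 ± 0.51 on the log2 scale in TSA Sca1+ cells (a difference of -3.70, adjusted p = 0.0219). Tnni1 differed by -3.54 ± 0.25 (adjusted p = 0.00581) and Tnnt1 by -2.86 ± 0.24 (adjusted p = 0.00746). The fast genes differed by -2.09 ± 0.18 for Tnni2 (adjusted p = 0.0076), -2.02 ± 0.26 for Tnnt3 (adjusted p = 0.0186) and -1.77 ± 0.19 for Tnnc2 (adjusted p = 0.0122). Tnnc1 (-2.75 ± 0.84, adjusted p = 0.121) and Tnni3 (0.40 ± 0.24, adjusted p = 0.36, and -0.25 under normexp correction) did not pass. Without TSA array 1 only Tnni1 passed here, and without TSA array 2 none of the 8 did, with 6 of 8 at an unadjusted p under 0.05 in limma in each case. Without either vehicle array 7 passed, and under normexp correction 7 passed too, Tnnc1 being the added gene; that correction also moved the split over all genes to 1914 higher and 1771 lower, against 2077 and 1261. For 7 of the 8 members both vehicle Sca1+ arrays lay lowest, both TSA arrays next and the MuSC array highest, an order that 13.9% of all genes had. The exception was Tnni3, whose MuSC value lay between the TSA and the vehicle values. Tnnc1 counts among the 7 although neither vehicle array was well above background for it. Taken alone, both TSA arrays lay below the MuSC array for 7 members and for 48.1% of all genes, and above it for 1 member, Tnni3, and for 33.7% of all genes. This order rests on the same arrays as the comparisons above.

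The other sarcomere genes were taken as 4 lists, which share Actc1, Casq2 and Tpm3 between them. Of 14 other thin filament genes, 7 were higher in TSA Sca1+ cells and 0 lower, and the median of the 14 was 1.39 on the log2 scale. Cardiac actin, Actc1, differed by 4.93 ± 0.16 (adjusted p = 0.00358), Acta1, skeletal actin, by 3.83 ± 0.24 (adjusted p = 0.00766) and Tpm2, beta-tropomyosin, by 3.24 ± 0.16 (adjusted p = 0.00515). Tmod1, which caps thin filament ends, was at least 1.45-fold higher (adjusted p = 0.00804). The tropomyosin gene Tpm1 rose as well (2.20 ± 0.15, adjusted p = 0.00984), while Tpm3, the tropomyosin of slow fibres and of non-muscle cells, differed by 0.10 ± 0.16 (adjusted p = 0.736).

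Of 11 fast fibre genes, 6 were higher in TSA Sca1+ cells and 0 lower, with a median of 2.66. They included the fast myosin heavy chain genes Myh2 (at least 10.3-fold, adjusted p = 0.022), Myh1 (3.63 ± 0.37, adjusted p = 0.024) and Myh4 (3.41 ± 0.26, adjusted p = 0.0124), and Casq1, the calcium store protein of fast fibres (at least 2.03-fold, adjusted p = 0.0101). Only 1 vehicle array was well above background for Myh1. Of 9 slow fibre genes tested, of 10 on the array, 2 were higher and 0 lower, with a median of 1.03. These were Casq2, the cardiac and slow calsequestrin (4.54 ± 0.15, adjusted p = 0.00358), and Sln, which regulates the calcium pump (3.30 ± 0.26, adjusted p = 0.0139). Myh7, the slow myosin heavy chain, differed by -0.40 ± 0.27 (adjusted p = 0.415). Of 7 embryonic and neonatal sarcomere genes, 4 were higher and 0 lower, with a median of 4.32: Actc1 and Casq2, named above, Ankrd1 (4.32 ± 0.54, adjusted p = 0.0386), a stress-responsive titin-binding protein, and Myh8, the neonatal myosin heavy chain (3.34 ± 0.16, adjusted p = 0.0046). For Ankrd1, too, only 1 vehicle array was well above background. Myh3, the embryonic myosin heavy chain, differed by 5.11 ± 1.16 and did not pass (adjusted p = 0.119), since the vehicle arrays read -3.21 and -6.60 against 0.22 and 0.17 on the TSA arrays. In MuSC against vehicle Sca1+ cells, 9 of 14 thin filament, 8 of 11 fast fibre, 5 of 9 slow fibre and 7 of 7 embryonic and neonatal genes were higher and 0 of these lists' genes lower, with medians of 3.38, 3.77, 2.44 and 6.49.

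**Figure D4:**
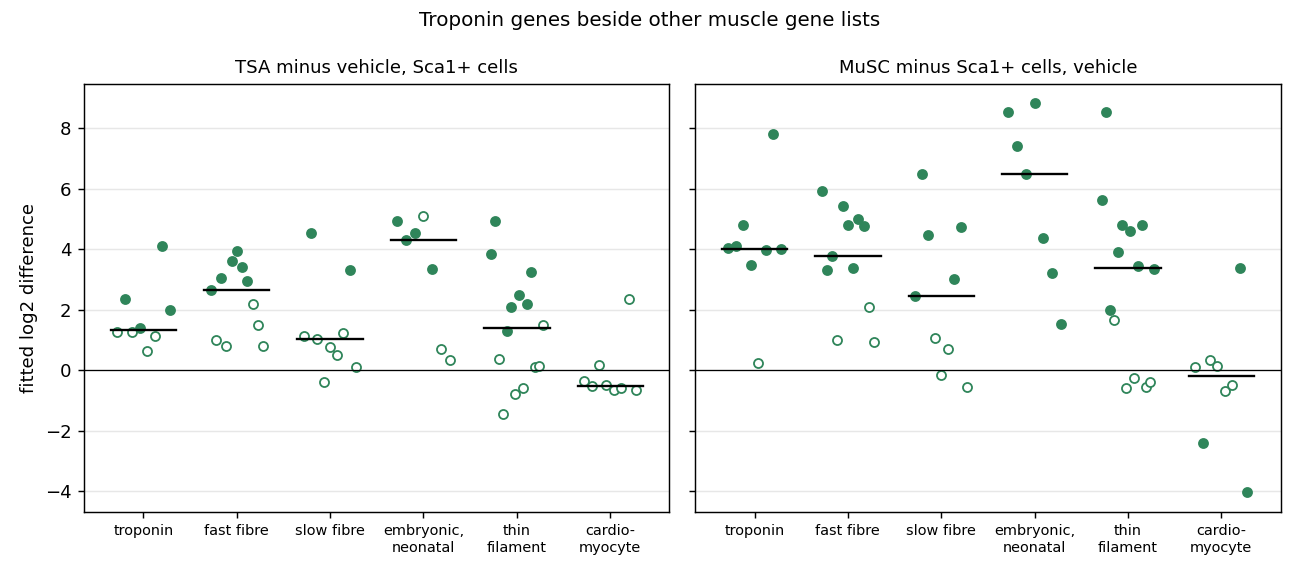
Fitted log2 differences (vertical axis) of the troponin genes, 4 sarcomere gene lists and the cardiomyocyte markers for TSA minus vehicle in Sca1+ cells and MuSC minus vehicle Sca1+ cells. Each point is a gene, filled where it passed an adjusted p of 0.05 in limma, and lines are list medians, such as 1.34 for troponin and 2.66 for fast fibre genes under TSA.

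Markers of other cell types differed between the groups as well. The summed signal of 8 satellite cell and myoblast markers, in multiples of the array's 75th percentile, was 38.6 and 40.4 on the TSA arrays, 237 on the MuSC array and 12.8 and 12.3 on the vehicle Sca1+ arrays, and 5 of 8 were higher with TSA. The sum of 8 mature myofibre markers was 20.2 and 24.1 with TSA, 71.3 in MuSC and 2.71 and 3.22 in vehicle Sca1+ cells, and 6 of 8 were higher with TSA. Without Acta1, the brightest of them, it was 6.25 and 6.14 with TSA, 16.8 in MuSC and 1.75 and 1.94 in vehicle Sca1+ cells. That list shares Myh1, Myh2, Myh4, Actn3 and Pvalb with the fast fibre genes. Of 6 differentiating myoblast markers 1 was higher with TSA, Myog, a factor that drives myoblast differentiation (4.89 ± 0.20, adjusted p = 0.00424), and the list's sum was 28.3 and 24.0 with TSA, 92.8 in MuSC and 36.3 and 28.6 in vehicle Sca1+ cells. That sum was mostly Cdkn1c, a cell cycle inhibitor that other cell types express too: without it the other 5 markers summed to 4.52 and 5.16 with TSA, 49.0 in MuSC and 0.958 and 1.20 in vehicle Sca1+ cells, which turns the order of TSA and vehicle round. The sum of 7 smooth muscle and pericyte markers was 305 and 309 with TSA, 885 in MuSC and 17.8 and 16.6 in vehicle Sca1+ cells, and 7 of 7 were higher with TSA. These were Myh11, Acta2, Cnn1, Lmod1, Rgs5, Notch3 and Des. Without Acta2, the brightest, the sum was 72.9 and 71.2 with TSA, 242 in MuSC and 7.79 and 6.77 in vehicle Sca1+ cells. The part of these marker sets in the troponin differences was not tested.

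Blood and mast cell markers moved in a different order. The sum of 5 red blood cell markers was 815 and 838 with TSA, 20.6 in MuSC and 50.8 and 51.3 in vehicle Sca1+ cells, and that of 5 mast cell markers was 27.8 and 25.6, 0.20, and 0.664 and 0.633 in the same groups. In each of these lists 4 of 5 markers were higher with TSA. Fibroadipogenic progenitor markers, 7 genes typical of Sca1+ interstitial cells, summed to 1442 and 1524 with TSA, 233 in MuSC and 2506 and 3593 in vehicle Sca1+ cells. With TSA, 1 of 7 passed as lower, while the fitted differences of all 7 ran from -1.37 to -0.72. Of these 7, 6 had an unadjusted p under 0.05 in limma. The part of these lists in the troponin differences was not tested either.

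Markers of heart muscle were at low levels in all groups. The sum of 10 cardiomyocyte markers was 0.941 and 0.960 with TSA, 0.775 in MuSC and 1.20 and 1.37 in vehicle Sca1+ cells. Of the 8 that were tested, 0 passed with TSA, and 2 had an unadjusted p under 0.05 in limma, Ryr2 and Tbx5. Ryr2 was at -4.15 and -3.73 on the TSA arrays, and neither vehicle array was well above background for it. Its fitted difference with TSA was 2.35 ± 0.34 (adjusted p = 0.055 in limma). Tbx5 differed by -0.65 ± 0.15 with TSA (adjusted p = 0.125 in limma). Myh6, the alpha myosin heavy chain of the heart, was at -3.24 and -3.94 with TSA, -3.40 in MuSC and -3.46 and -4.03 in vehicle Sca1+ cells, and Mybpc3 and Myl7, both proteins of the cardiac sarcomere, were not well above background on any array. In MuSC, Ryr2 was at least 3.03-fold higher than in vehicle Sca1+ cells (adjusted p = 0.0105), and the heart transcription factors Hand2 and Tbx5 were lower.

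By profile over the 5 arrays, each gene centred on its own mean, the closest pair of troponin genes was Tnnc2 and Tnnt3, with a root mean square difference of 0.20 on the log2 scale, and next came Tnni2 and Tnnt1 at 0.30. The furthest pair was Tnni3 and Tnnt2, at 2.82. The first pair joins fast genes, and the second joins a fast gene to a slow one. Among 15425 named genes outside the family, those nearest to Tnnt2 were Chrnd at 0.15, Cdkn2a at 0.33 and Wnt10a at 0.34. Chrnd, which encodes the delta subunit of the muscle acetylcholine receptor, differed by 4.30 with TSA and by 7.73 in MuSC, each against vehicle Sca1+ cells. Nearest to Tnnt1 were Sytl2 at 0.10, Col22a1 at 0.12 and Ank1 at 0.13, and nearest to Tnnt3 were Dclk3 at 0.11, Notch3 at 0.11 and Tfrc at 0.12. Notch3, a Notch receptor counted here among the pericyte markers, differed by 2.15 with TSA and by 4.07 in MuSC, and Tfrc, the transferrin receptor, by 2.20 and 4.26. With 5 arrays in 3 groups, likeness of profile reflects mainly the group means.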

How the data were processed

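The 5 arrays are 1-colour Agilent arrays. Per the file headers, the authors read spot intensities with Agilent Feature Extraction 10.7.3.1; the processed intensity is background-subtracted within each array and not scaled between arrays. The authors also deposited values on a log2 scale; the columns shared medians of 4.67 to 4.68 and ranked spots as the scanner values did, as quantile normalization gives, and the tool is not given in the sources used here. That table was used as an alternative.

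Values analysed were log2 processed signal minus the 75th percentile over 59305 non-control spots, without outlier spots (0.196% to 0.334% per array). Of 55681 probes, 26413 were named by accession, 574 through another probe, and 28694 kept the array design's name, which can be old. A gene took the probe with the highest mean. Where no array of a group had the probe well above background, the fold is given as "at least": the bright group's mean against the dim group's mean of, per array, the higher of the lowest well-above-background signal and the probe's own. limma 3.58.1 in R 4.3.3 was fitted over 5 arrays in 3 groups (2 residual and 2.30 prior degrees of freedom, two-sided, Benjamini-Hochberg threshold 0.05), and the script was tested on simulated data. A few genes without a MuSC value left 26090 genes in comparisons with MuSC.

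Alternatives were normexp correction (offset 50, on the median spot signal, since the mean signal is not in every file), quantile normalization, the deposited values, other filters, the mean of probes, the replicate number (slide) as a block, each array left out, and, added after seeing the data, the second Tnnt3 probe. The members and gene lists were chosen with earlier results of these data known. All 8 members are named, with the 2 to 4 largest differences past the threshold in each sarcomere list and the 3 genes of nearest profile for each troponin T gene; other genes and markers were named after their values were seen.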

Additional observations from a re-analysis of the deposited data

How the results depend on the processing

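The counts of troponin genes called stayed at 4 with TSA, 7 in MuSC and 6 between TSA Sca1+ cells and MuSC under quantile normalization, the deposited values, the mean of probes and the replicate block. Of 263 gene-by-alternative values, 222 kept their direction and side of the threshold, 33 fell below it, 4 passed it and 4 reversed. The block, for which same-numbered arrays share a slide, changed no member's call and gave 1098 genes called with TSA against 778. The correlation of slide deviations between the 2 groups with replicates was 0.35. Without a filter on dim probes, 1 troponin gene passed with TSA (Tnnc2), 6 in MuSC (Tnnc1 was lost, adjusted p = 0.0786 in limma) and 4 between TSA Sca1+ cells and MuSC (Tnnt2 and Tnnt3 were lost, adjusted p = 0.0574 and 0.0552), and 283, 3380 and 1307 genes passed in the 3 comparisons, against 778, 5783 and 3338; more genes were tested then. With normexp correction 7129 genes passed with TSA, and the median of all genes moved to -0.25, against -0.13. The fast-to-slow difference was then 0.34 for Tnnt3 to Tnnt1, 2.61 for Tnnc2 to Tnnc1 and 1.14 for Tnni2 to Tnni1. Normexp correction reversed Tnni3 (-0.42 with TSA, -0.18 in MuSC, -0.25 between TSA Sca1+ cells and MuSC) and Tnnc1 (-0.46 with TSA); the cause was not tested. With the mean of the Tnnt3 probes, Tnnt3 to Tnnt1 differed by 0.54, and with the second probe by 0.21. Leaving out each Sca1+ array in turn gave 0 to 1 troponin genes and 0 to 321 genes with TSA, 6 to 7 and 3429 to 4296 in MuSC, and 0 to 7 and 0 to 2347 between TSA Sca1+ cells and MuSC. Without TSA array 1 or TSA array 2, 0 genes passed with TSA, and 4914 and 3100 had an unadjusted p under 0.05 in limma. Without TSA array 2, 0 genes passed between TSA Sca1+ cells and MuSC, and 5284 had an unadjusted p under 0.05 in limma. Leaving out the MuSC array could not change the TSA comparison, since a group of 1 array adds nothing to the estimate of spread. The same 4 troponin genes and 778 genes passed with TSA, and the values of this fit are among the 263. A group left with 1 array was assumed to vary like the others. Over these fits the fast-to-slow difference ranged over 0.82 to 0.94 for Tnnt3 to Tnnt1, 0.18 to 1.98 for Tnnc2 to Tnnc1 and -0.08 to 0.34 for Tnni2 to Tnni1. No block was run for these ratios. Signal over background limits Tnnc1, Tnnt2 and Tnni3 in vehicle Sca1+ cells.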

Other observations

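On a linear scale, the excess of TSA Sca1+ cells over vehicle Sca1+ cells was set against the excess of MuSC over the same vehicle arrays, so both quantities share those arrays and no test was made. The TSA excess was 25.1% of the MuSC excess for Tnnc2, 19.7% for Tnnt3 and 16.0% for Tnni2. It was 7.89% for Tnnt1, 5.18% for Tnni1 and 7.28% for Tnnt2. The 3 fast genes thus had the higher shares among these 6 members. Tnni3 is left out because its MuSC excess was within its error, and Tnnc1 because neither vehicle array was well above background for it. For 8 satellite cell and myoblast markers the share ran from 3.75% for Pax7 to 16.6% for Itga7.

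The troponin T and troponin I genes lie in 3 pairs in the mouse genome, while Tnnc1 and Tnnc2 lie elsewhere. In the RefSeq gene table (GRCm38.p6), Tnnt1 and Tnni3 are neighbours with no gene between them, Lad1 lies between Tnnt2 and Tnni1, and Lsp1 and Prr33 lie between Tnnt3 and Tnni2. Tnnt2 differed by 4.10 with TSA and its partner Tnni1 by 1.27, a contrast that was not tested. Lsp1, a leukocyte actin-binding protein, differed by -0.63 with TSA (adjusted p = 0.121 in limma) and by -3.36 in MuSC against vehicle Sca1+ cells (adjusted p = 0.00176), while both of the troponin genes beside it were higher. Prr33 was well above background only on the TSA arrays, at -4.55 and -5.05, and not in MuSC or vehicle Sca1+ cells. The lowest well-above-background values of the vehicle arrays were -4.62 and -4.42. No rise is therefore read from its fitted difference with TSA (adjusted p = 0.0418 in limma). Lad1 was not well above background on any of the 5 arrays.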
